A study of Mus musculus with 38 samples.

Results

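Regions that carried H3K9me3 and H3K27me3 at the same place in wild-type mouse embryonic stem cells were examined in cells with and without IκBα. They were taken as the overlap of the H3K9me3 and the H3K27me3 WT consensus, each made of the bases under an epic2 call in at least 2 of 3 WT libraries, on chromosomes 1 to 19, with pieces of at least 1000 bp and no H3K4me3 call in a WT library. This gave 1891 regions among 78958 consensus pieces of either mark, beside 37970 regions with H3K9me3 only and 34722 with H3K27me3 only. The cells were of the ES-E14TG2a line, cultured with serum and leukemia inhibitory factor and collected at 0 h. IκBα-WT libraries came from clones edited with scrambled guides and IκBα-KO libraries from clones in which both guides targeted exon 1 of Nfkbia, and per the study's methods 3 independent clones of each genotype were used. Every mark had 3 WT and 3 KO ChIP libraries, and each genotype had 1 input library per experiment, so that input was not replicated. The regions were chosen by their WT calls of H3K9me3, H3K27me3 and H3K4me3. WT coverage and WT read density are therefore given as a description, while KO calls, H3K27ac, H3K4me1 and a WT library left out of the choice were not used to pick them.

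H3K9me3 is laid down by SETDB1 and the SUV39H enzymes and marks constitutive heterochromatin, silenced retroelements and the methylated allele of imprinting control regions. H3K27me3 is laid down by Polycomb repressive complex PRC2 and marks CpG-rich developmental promoters and, at several imprinted loci, the other parental allele. ChIP of a cell population reads both alleles and all cells together, so a region called for both marks may carry them on different alleles, in different cells or at neighbouring nucleosomes, and these cannot be told apart here. At imprinting control regions, the zinc-finger protein ZFP57 binds the methylated hexamer TGCCGC and recruits TRIM28 and SETDB1.

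The sequences below are 200-base stretches (GRCm38.p6, plus strand) of regions that the results turn on: 4 regions near imprinted genes where H3K9me3 calls were absent from KO, the region in Grb10, and the longest region. Each is the stretch with most TGCCGC matches, then most CpG, among those without soft-masked bases or protein-coding exons, so that repeats are not shown. Capitals mark TGCCGC or, on the minus strand, GCGGCA. The Plagl1 stretch lies at chr10:13091061-13091260, the one beside H19 at chr7:142578141-142578340, the one in Kcnq1 at chr7:143299601-143299800 and the one upstream of Rasgrf1 at chr9:89878561-89878760. The Grb10 stretch lies at chr11:12010101-12010300 and that of the longest region at chr17:27325541-27325740.
Plagl1: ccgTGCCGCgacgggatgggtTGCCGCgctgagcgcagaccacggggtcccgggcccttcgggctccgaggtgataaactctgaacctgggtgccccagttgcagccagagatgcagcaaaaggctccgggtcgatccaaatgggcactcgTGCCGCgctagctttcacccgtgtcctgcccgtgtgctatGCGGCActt
H19: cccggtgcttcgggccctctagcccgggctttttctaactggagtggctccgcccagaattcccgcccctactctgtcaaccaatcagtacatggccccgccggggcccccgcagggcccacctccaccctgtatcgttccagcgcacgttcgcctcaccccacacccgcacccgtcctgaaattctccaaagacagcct
Kcnq1: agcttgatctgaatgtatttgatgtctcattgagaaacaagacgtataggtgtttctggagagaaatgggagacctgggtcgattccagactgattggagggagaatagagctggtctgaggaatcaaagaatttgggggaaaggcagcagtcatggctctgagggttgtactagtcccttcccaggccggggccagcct
Rasgrf1: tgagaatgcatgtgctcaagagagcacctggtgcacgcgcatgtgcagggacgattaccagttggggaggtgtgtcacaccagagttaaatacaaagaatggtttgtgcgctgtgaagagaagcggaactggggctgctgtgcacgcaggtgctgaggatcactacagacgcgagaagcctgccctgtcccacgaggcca
Grb10: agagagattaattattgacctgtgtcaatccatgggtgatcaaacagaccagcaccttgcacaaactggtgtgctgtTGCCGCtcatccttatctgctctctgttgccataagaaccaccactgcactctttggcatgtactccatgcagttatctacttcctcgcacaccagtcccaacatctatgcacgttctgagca
longest region: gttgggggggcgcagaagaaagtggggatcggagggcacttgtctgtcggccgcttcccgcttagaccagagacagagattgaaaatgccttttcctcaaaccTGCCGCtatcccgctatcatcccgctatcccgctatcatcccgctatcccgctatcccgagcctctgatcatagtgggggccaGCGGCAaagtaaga
The Plagl1 stretch held 4 matches and 19 CpG, against 0 matches and 14 CpG beside H19, 0 and 3 in Kcnq1, 0 and 9 at Rasgrf1, 1 and 3 in Grb10, and 2 and 13 in the longest region. Over its full 6200 bp the Rasgrf1 region held 9 matches, and over its 3600 bp the Plagl1 region held 6. In the central 1000 bp, 13.6% of the 1891 regions held a match, against 9.15% of H3K9me3-only and 10.2% of H3K27me3-only regions. A match is only a stretch of letters, and binding of ZFP57 was not measured.

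Bases with both marks made up 4.95 Mb, which was 2.72% of the WT H3K9me3 consensus and 2.18% of the WT H3K27me3 consensus. H3K27me3 covered 9.48% of the sequenced autosomes and H3K9me3 7.61%. Of 3195 pieces, 1128 were shorter than 1000 bp and 176 of the 2067 longer ones were dropped for H3K4me3. The 1891 regions summed to 3.84 Mb, with a median length of 1600 bp and an interquartile range of 1200 to 2400 bp, and 39 of them reached 5000 bp. At the length limit, the 255 regions of 1000 bp had a median of 39.2 H3K9me3 and 31.8 H3K27me3 reads per kb in WT, and the 257 pieces of 800 bp just below it had 39.1 and 30.8.

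In 1025 (54.2%) the end of an H3K9me3 run overlapped the end of an H3K27me3 run, in 731 (38.7%) an H3K9me3 run lay inside an H3K27me3 run, in 133 (7.03%) an H3K27me3 run lay inside an H3K9me3 run, and in 2 both runs had the same bounds. Median GC content was 47.9%, against 47.1% in H3K27me3-only and 42.2% in H3K9me3-only regions, and soft-masked repeats took a median of 18% of their bases, against 16.2% and 47.1%. CpG frequency was 11 per kb, against 11.4 in H3K27me3-only and 8.00 in H3K9me3-only regions. Regions were annotated by their midpoint, with a promoter taken as 5000 bp before to 100 bp after a start. The midpoint lay in a promoter in 10.5% of the regions, in an exon in 5.39%, in an intron in 29.6%, and 54.5% were intergenic. With any overlap counted, 19.6% touched an exon. For H3K27me3-only regions the promoter share was 5.18% and for H3K9me3-only regions 2.75%.

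The regions overlapped the bodies of 663 of 20780 protein-coding genes (3.19%), and of 9 of 367 zinc-finger genes of the Zfp series, 3 of 1100 olfactory receptor genes and 0 of 326 vomeronasal receptor genes, 3 families with large H3K9me3 clusters, while H3K9me3-only regions overlapped 146, 124 and 117 of these. Clustered protocadherin genes, which encode neuronal cell-surface proteins from 3 adjoining clusters, were overlapped in 22 of 57 cases (38.6%), and all 57 also held H3K27me3-only regions. Among germline genes 5 of 25 were overlapped (Brdt, Dazl, Spo11, Tex101, Tex19.1), among developmental regulators 5 of 109 (Gata3, Gata4, Hoxc5, Hoxc9, Hoxd12), and among imprinted genes 10 of 51 (Airn, Grb10, H19, Igf2, Kcnk9, Kcnq1, Kcnq1ot1, Plagl1, Sgce, Zdbf2). H3K9me3-only regions overlapped 12, 1 and 24 genes of these lists and H3K27me3-only regions 13, 11 and 16. Of all protein-coding genes, H3K9me3-only regions overlapped 26.3% and H3K27me3-only regions 25.8%. For imprinted genes the single-mark shares were 47.1% and 31.4%, so a raised share was not particular to regions with both marks. Each gene was counted on its own, so 1 region could count for several genes that overlap one another. The 22 protocadherin genes are therefore not a count of regions. These shares are descriptions of lists of unequal gene length and carry no test.

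Chromosome 8 held 225 regions, or 17.9 per 10 Mb, the highest density of any autosome, against 3.87 to 11.5 on the others. With the same rule applied to the KO lists, 1888 regions were found, of which 428 (22.7%) lay on chromosome 8. In the input reads of the KO, a segment of chromosome 8 (41000001 to 129000000) and the end of chromosome 2 (165000001 to 171000000) were higher and the end of chromosome 12 (103000001 to 119000000) lower than in WT, with log2 input ratios between 0.36 and 0.51 on chromosome 8 and between -0.96 and -0.79 on chromosome 12 under the calls of the 4 epic2 marks, which share 3 pairs of input libraries since H3K27ac and H3K4me1 used the same ones. The chromosome 8 segment held 202 regions by the WT lists and 409 by the KO lists, and the chromosome 12 segment held 32 and 0. The part of the input difference in these numbers was not tested, and results are therefore also given for the 1630 regions outside these segments.

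**Figure D1:**
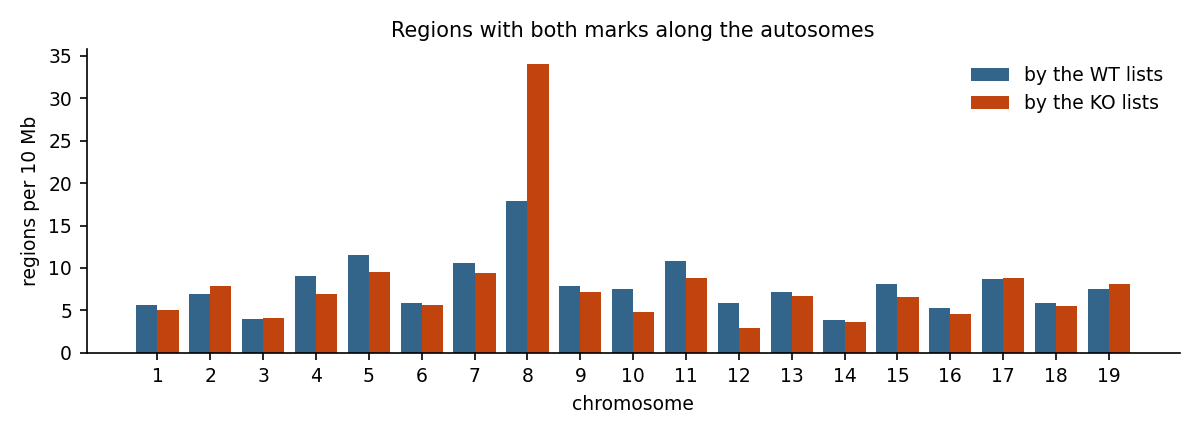
Bars give the number of regions with both marks per 10 Mb of sequenced chromosome (y axis) for chromosomes 1 to 19 (x axis), by the WT lists (blue) and by the KO lists (red). Chromosome 8 stands above all others at 17.9 by the WT lists, and its bar by the KO lists is higher still, while other chromosomes lie at or below 11.5 by the WT lists.

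Each value is the ChIP read count of the calls that overlap a region, divided by their length and, unless said otherwise, not scaled for depth, and the reads in calls totalled 8548342 to 12105343 per H3K9me3 library and 8910890 to 10938375 per H3K27me3 library. In WT the median H3K9me3 density was 39.0 ± 3.64 reads per kb (SD, n = 3) in regions with both marks and 43.7 ± 4.03 in H3K9me3-only regions, and the ratio lay between 0.890 and 0.897 in the 3 libraries. The order was the opposite for H3K27me3, with 33.4 ± 1.45 reads per kb in regions with both marks and 29.5 ± 1.93 in H3K27me3-only regions, a ratio of 1.10 to 1.15. Input under the H3K9me3 calls was 22.5 reads per kb in regions with both marks and 19.7 in H3K9me3-only regions. These WT values are part of how the regions were chosen and were not tested. In KO the median over regions with a call was 39.7 ± 5.01 reads per kb for H3K9me3 and 35.4 ± 0.781 for H3K27me3.

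In KO cells H3K9me3 calls covered fewer of the bases. The median density of the calls that were left was 36.4 to 45.5 reads per kb in the KO libraries, which overlaps the 36.9 to 43.2 of WT. The median ratio of ChIP to input in these calls was 1.75 ± 0.165 in WT and 1.53 ± 0.183 in KO (SD, n = 3). Regions without a call do not enter these medians. WT libraries covered 87.5, 86.3 and 87.3% of the region bases with H3K9me3 calls and KO libraries 64.8, 50.9 and 59.6%, and the groups did not overlap. The means were 87.0 ± 0.641% and 58.4 ± 7.06% (SD, n = 3). In H3K9me3-only regions coverage went from 92.0 ± 0.384% to 76.6 ± 2.28%. Because WT calls chose the regions, they were rebuilt from 2 WT libraries and the third was set against KO. The left-out WT library then covered 83.0, 81.2 or 81.7% of the bases and the KO mean was 66.2, 64.9 or 65.4%, a difference of -16.7, -16.4 or -16.3 percentage points. In H3K9me3-only regions rebuilt in the same way the difference was -7.53, -7.87 or -7.25 percentage points. With every list cut to its 35979 strongest calls, the difference was -7.43 percentage points in regions with both marks, where the SD was 5.46 in WT and 7.67 in KO and the groups overlapped, and -8.30 in H3K9me3-only regions. In percentage points, the larger difference in regions with both marks was thus not seen with lists of equal length. The cut lists started from unlike coverage, however. Regions with both marks had means of 51.6% in WT and 44.1% in KO, and H3K9me3-only regions 81.5% and 73.2%. KO H3K9me3 lists held 35979 to 49774 calls and WT lists 44671 to 52748. Input under the H3K9me3 calls of these regions was 22.5 reads per kb in WT and 25.9 in KO, and in H3K9me3-only regions 19.7 and 20.2. These are means over the calls of 3 ChIP libraries, counted in 1 input library per genotype, and have no replicate spread. The part of list length and of input in the lower coverage was not tested.

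H3K27me3 coverage was 80.0, 90.9 and 89.6% in the WT libraries and 78.8, 78.4 and 76.4% in the KO libraries, with means of 86.8 ± 5.96% and 77.8 ± 1.31% (SD, n = 3). Against a WT library left out of the choice the KO mean differed by 7.87 percentage points for WT replicate 1, -2.14 for WT replicate 2 and -0.643 for WT replicate 3. The same comparison in H3K27me3-only regions gave 8.92, -2.05 and -1.49. The direction thus turned with WT replicate 1, the library with the fewest H3K27me3 reads in calls (8910890), and no difference of H3K27me3 coverage held across the left-out libraries.

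H3K27ac, a mark of active enhancers and promoters, and H3K4me1, a mark of primed and active enhancers, covered smaller shares of these bases. H3K27ac calls covered 18.8, 18 and 19.4% in WT and 22.7, 24.0 and 24.5% in KO, and the groups did not overlap (difference 4.98 percentage points, exact two-sided permutation p = 0.1, the smallest that 3 against 3 allows). Outside the input segments the difference was 3.13, and without the 3 neighbouring regions of chromosome 17 described below it was 3.78. In H3K27me3-only regions H3K27ac went from 18 ± 0.417 to 21.5 ± 0.658%, and the excess of regions with both marks over these was 0.796 ± 0.463 percentage points in WT and 2.21 ± 0.330 in KO (exact permutation p = 0.1). Without the 3 regions of chromosome 17 this excess was 0.709 ± 0.454 in WT and 0.920 ± 0.366 in KO (exact permutation p = 0.5). H3K4me1 coverage was 26 ± 0.134% in WT and 26.9 ± 0.677% in KO (exact permutation p = 0.1), and outside the input segments it was 27.1 ± 0.0163% and 26.1 ± 0.630%, the opposite order. In H3K27me3-only regions H3K4me1 went from 32.5 ± 0.0937 to 30.2 ± 0.356%. The difference of regions with both marks from these was -6.51 ± 0.113 percentage points in WT and -3.34 ± 0.480 in KO (exact permutation p = 0.1). It is not given outside the input segments.

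**Figure D2:**
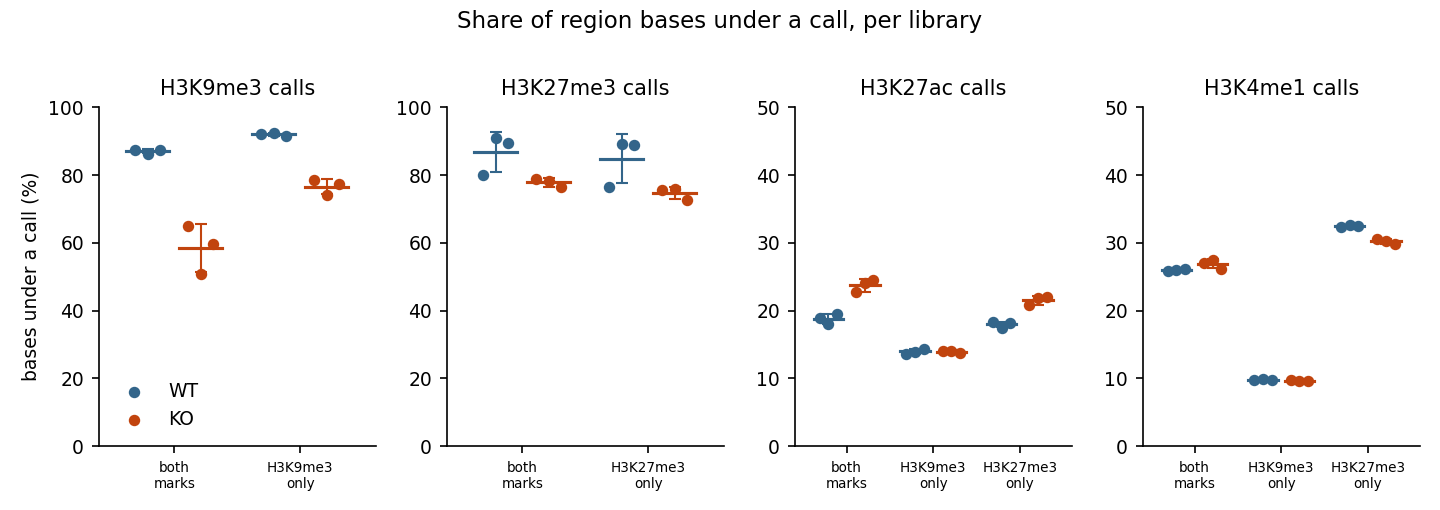
Points give the percentage of region bases under a call (y axis) in each library for regions with both marks and regions with a single mark (x axis), with WT in blue and KO in red, bars at the mean and whiskers at ± 1 SD (n = 3). The axes of H3K27ac and H3K4me1 end at 50. H3K9me3 coverage of regions with both marks is lower in KO (58.4%) than in WT (87.0%), and WT coverage of H3K9me3 and H3K27me3 is fixed high by the choice of regions.

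By region, 923 (48.8%) kept both marks in KO, counted as at least 0.5 of the bases in the KO consensus. H3K27me3 alone was left in 584 (30.9%), H3K9me3 alone in 223 (11.8%) and neither in 161 (8.51%). H3K9me3 was thus kept in 60.6% and H3K27me3 in 79.7%, while H3K9me3-only regions kept H3K9me3 in 77.4% and H3K27me3-only regions kept H3K27me3 in 77.0%. With the choice reversed, of 1888 regions with both marks by the KO lists, 75.1% had H3K9me3 and 59.4% had H3K27me3 in WT. The shares differed with the arrangement of the runs. H3K9me3 runs inside an H3K27me3 run kept H3K9me3 in 52.8% and H3K27me3 in 88.2%, H3K27me3 runs inside an H3K9me3 run kept them in 75.2% and 62.4%, and borders in 64.2% and 75.9%.

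**Figure D3:**
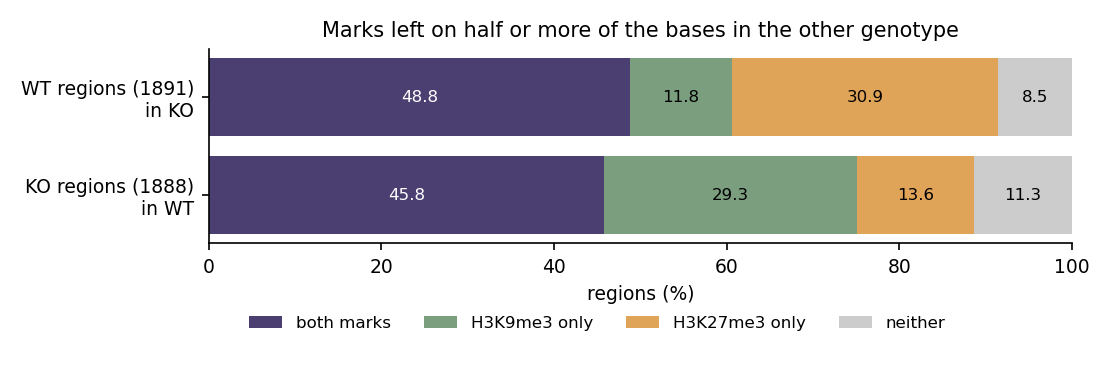
Stacked bars give the percentage (x axis) of the 1891 regions with both marks by the WT lists according to the marks they had in KO, and of the 1888 regions by the KO lists according to the marks they had in WT. H3K27me3 alone is the larger single-mark class in KO (30.9%) and H3K9me3 alone the larger in WT (29.3%).

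Read counts of KO and WT were compared with edgeR's quasi-likelihood test in merged regions, which join overlapping calls of the 6 libraries and were tested where all 6 had a call. A merged region often extends beyond the region with both marks, and a region with no call in KO could not be tested for that mark unless a longer merged region covered it. For H3K9me3, 8 of 908 merged regions holding 994 of the 1891 regions passed an adjusted p of 0.05 (0.881%), against a background of 0.435% of all 27342 merged regions. They were 2 higher and 6 lower in KO, with backgrounds of 0.168% and 0.267%, and outside the input segments 2 were higher and 4 lower, with backgrounds of 0.134% and 0.229%. The H3K9me3 count was 4, 3 and 2 without WT replicate 1, 2 or 3 and 5 and 4 without KO replicate 1 or 3, and DESeq2 called 17, against a background of 0.998%. For H3K27me3, 80 of 1423 passed (5.62%), against a background of 2.73% of 18809. They were 60 higher and 20 lower, with backgrounds of 1.7% and 1.04%. The H3K27me3 count was 49 and 53 without WT replicate 2 or 3 and 38 and 50 without KO replicate 1 or 2, and in merged regions of like length in all libraries 66 were higher and 65 lower of 290, against a background of 35.1% called (711 of 2025). Outside the input segments, 41 of 1258 H3K27me3 regions passed (3.26%), against a background of 1.56%, 24 higher and 17 lower, with backgrounds of 0.713% and 0.847%. The median log2 change was 0.01 for H3K27me3 and -0.03 for H3K9me3, against 0.00 in all tested regions of both marks.

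Where both marks could be tested, H3K9me3 and H3K27me3 changes had no common or opposite trend. The tested pairs of merged regions held 828 of the 1891 regions. Regions that lost every KO call of a mark were left out unless a longer merged region covered them. In 778 pairs of merged regions tested for both marks, the signs of the log2 changes were opposite in 394 (50.6%, 95% Wilson interval 47.1 to 54.1%): H3K9me3 was lower and H3K27me3 higher in 241 and the reverse held in 153, while both were higher in 179 and both lower in 205. Spearman's rho between the changes was 0.00 over these pairs and -0.03 over the 688 pairs outside the input segments. The interval and rho are descriptions, since pairs share libraries, input and at times a merged region and so are not independent. A single pair, in Kcnq1, passed the test for both marks, in the same direction, and 0 passed in opposite directions. In the 14 pairs of like length, 2 passed for both marks, 1 of them in opposite directions. H3K27me3 was called higher in 10 and lower in 6 of 235 merged regions whose regions had no H3K9me3 call in any KO library, and higher in 30 and lower in 10 of 724 with H3K9me3 calls in all 3, or 4.26% and 4.14% called higher, with median log2 changes of 0.01 and 0.02. In the other direction, of 55 merged regions at regions with no H3K27me3 call in KO, 0 were higher and 1 was lower for H3K9me3 by edgeR.

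**Figure D4:**
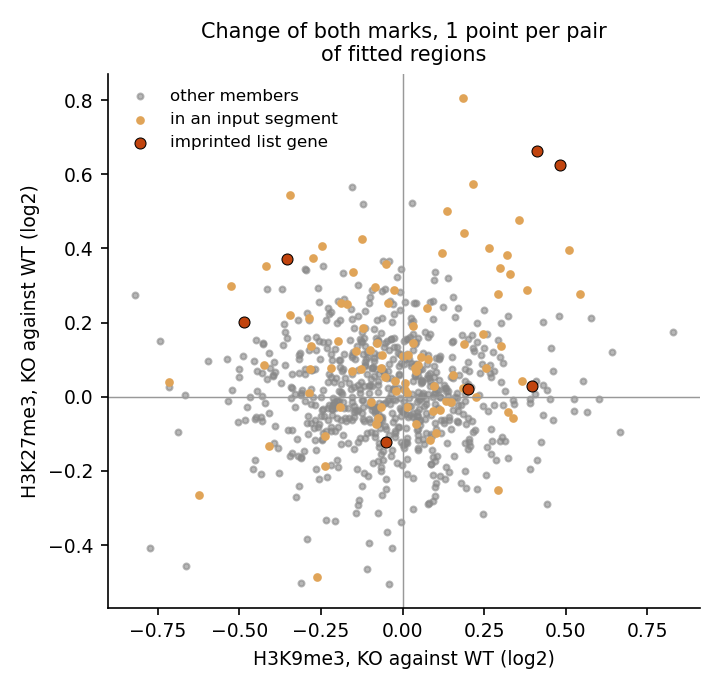
Each of the 778 points is a pair of merged regions, with the H3K9me3 log2 change on the x axis and the H3K27me3 log2 change on the y axis, KO against WT. Imprinted list genes are large red points and regions inside an input segment are orange. The points form a cloud with no slope (394 of 778 with opposite signs), and regions that lost every KO call of a mark are missing unless a longer merged region covers them.

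At a few loci H3K9me3 calls were lost where H3K27me3 rose. H3K9me3 was called in all 3 WT and 0 of 3 KO libraries in 136 regions (7.19%), and 83 of these had H3K27me3 in all KO libraries and in a tested merged region. H3K27me3 was called higher in 7 and lower in 0 of the 83. The 7 fell in 5 of 80 merged regions (6.25%), against 4.22% called higher over all merged regions with both marks and a background of 1.7%. Since the 83 had to carry H3K27me3 calls in every KO library, regions that lost these calls were left out. The shares set beside them were not filtered in this way. Without this filter, and without asking for H3K9me3 in every WT library, 10 of 235 merged regions were higher and 6 lower, as given above. These 7 regions, singled out after their values were seen, lay at 5 loci: Plagl1, the H19 locus, Kcnq1, a stretch upstream of Rasgrf1, and Syna. None lay in an input segment, but the segments were built from 1000000 bp windows and do not show local input. Input under the calls was higher in KO at Plagl1 and Syna, as given below, and is not given for the other loci. The reverse, H3K27me3 in all WT and no KO libraries with H3K9me3 called higher, was seen in 0 of the 26 merged regions that could be tested, which hold 27 of 54 such regions, where the background of 0.168% leaves little room for a call.

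Plagl1 encodes a zinc-finger transcription factor expressed from the paternal allele, and the region chr10:13089201-13092800 overlaps it and holds the stretch shown above. H3K9me3 was at 114, 95 and 79.5 reads per kb in the WT libraries and had no call in the KO libraries. H3K27me3 was at 33.0, 20.8 and 28.0 in WT and 48.9, 52.7 and 49.3 in KO. All KO values were above all WT values, and the merged region rose by 0.98 on the log2 scale (SE 0.11, edgeR adjusted p = 0.00014). Input under these calls was 15.0, 17.3 and 16.0 reads per kb in WT and 21.8, 22.6 and 21.6 in KO, and its part was not tested. Here and below, 3 input values of a genotype are 1 input library under the calls of 3 ChIP libraries, not replicates. An H3K4me3 call was present in 3 of 3 KO libraries and H3K4me1 calls, absent in WT, covered 83.3 to 100% of the bases in KO. A second region in Plagl1, chr10:13127401-13129400, had H3K27me3 at 33.9, 36 and 33.3 in WT and 42.7, 29.3 and 34.5 in KO, with overlap (log2 change 0.01, adjusted p = 0.99), and H3K9me3 was called there in 3 WT and 1 KO libraries.

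The H19 locus held 2 such regions, chr7:142574801-142578800 over the H19 gene, a maternally expressed non-coding RNA, and chr7:142585801-142588200 upstream of it. Mrpl23 was the nearest protein-coding gene, 34054 bp from the first. WT H3K9me3 density was 115, 85.1 and 84.6 reads per kb for both, since the same calls touched them, reaching 8.33% of the upstream region in WT replicate 1 and all of it in the other WT libraries, and KO libraries had no call. H3K27me3 over H19 was 36.5, 33.4 and 33.9 in WT and 55.0, 56.9 and 47.4 in KO, and upstream it was 37.4, 35.9 and 35.9 against 57.4, 57.6 and 54.2. The groups did not overlap at either place, and the merged region that holds both rose by 0.56 (SE 0.06, adjusted p = 7.6e-05). H3K27ac calls covered 15.0, 5.00 and 55.0% of the H19 region in WT and 100, 100 and 75% in KO.

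In Kcnq1, a potassium channel gene whose intron hosts the promoter of the imprinting RNA Kcnq1ot1, H3K9me3 at chr7:143298201-143299800 was 62.6, 62.3 and 61.6 reads per kb in WT with no call in KO. H3K27me3 was 62.5, 74.4 and 68.5 in WT and 115, 114 and 107 in KO, and its merged region rose by 0.63 (SE 0.06, adjusted p = 3.8e-05). That merged region ran from 143298001 to 143505400, so its test covers far more than the 1600 bp with both marks. Elsewhere in Kcnq1 the marks rose together: at chr7:143215201-143216200 H3K9me3 was 72.5, 58.7 and 55.4 in WT and 92.5, 69.8 and 71.8 in KO. This H3K9me3 merged region rose by 0.41 (SE 0.05, adjusted p = 0.0048) and that of H3K27me3 by 0.66 (SE 0.06, adjusted p = 2.9e-05).

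Rasgrf1 encodes a RAS guanine nucleotide exchange factor expressed from the paternal allele. Its regions chr9:89873801-89880000 and chr9:89881401-89883800 lay 29908 and 26108 bp from the gene, outside the promoter window. H3K9me3 calls of 49.9, 53.4 and 54.1 reads per kb in WT were absent from KO. H3K27me3 in the first region was 49.6, 49.3 and 45.6 in WT and 66.0, 61.6 and 62.2 in KO, without overlap, and the merged region rose by 0.38 (SE 0.06, adjusted p = 0.0029). Syna, which encodes the placental envelope protein syncytin A, had H3K9me3 at 29.4, 24.7 and 24.4 in WT, with input under these calls at 22.1, 19.7 and 24.4, and no call in KO. Its H3K27me3 was 32.5, 32.0 and 32.9 in WT and 44.7, 56.3 and 50.3 in KO (log2 change 0.63, SE 0.12, adjusted p = 0.011), and the adjusted p was 0.055 without KO replicate 2. Input at Syna went from 13.9, 14.3 and 13.9 to 22.5, 22.7 and 22.5 reads per kb, a ratio as large as that of the ChIP reads, and its part was not tested.

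In the KO consensus, 6 of the 13 regions that touched a gene or promoter of the imprinted list kept H3K9me3 and 12 kept H3K27me3. Over all 1891 regions these shares were 60.6% and 79.7%. Of the 13, 4 (30.8%) had H3K9me3 in all WT and no KO libraries, against 7.19% of all regions. The 4 were those at Plagl1, H19, Kcnq1 and Sgce/Peg10. H3K27me3 was tested in 10 merged regions of the list, of which 5 were higher and 0 lower, against a background of 1.7%, with a median log2 change of 0.29 against 0.00 in all tested regions. Of the 5, 4 lay near each other on chromosome 7, at H19, Igf2 and Kcnq1. Between them a merged region near Th, which is not on the list, rose by 0.56 (adjusted p = 3.8e-05) and one near Ins2 gave 0.35 (adjusted p = 0.12). On this stretch of chromosome 7 the rise was thus not limited to genes of the list. At chr6:4741401-4746200, between Sgce and the promoter of Peg10, H3K9me3 calls of 50.6, 48.7 and 42.3 reads per kb were absent from KO while H3K27me3 was 34.8, 37.9 and 36.4 in WT and 41.3, 33.2 and 44.2 in KO, with overlap between the groups (adjusted p = 0.95). The tested H3K9me3 merged region at this place ran on to 4759400 and gave 0.20 (SE 0.10, adjusted p = 0.55). In Grb10, which encodes a growth-restraining adaptor protein, H3K9me3 calls covered 100, 92.9 and 96.4% of chr11:12007601-12013200 in WT and 42.9, 39.3 and 78.6% in KO. The Grb10 H3K9me3 merged region fell by 0.49 (SE 0.09, adjusted p = 0.041), a call lost under 5 of 6 leave-outs (adjusted p up to 0.16) and with the replicate block (adjusted p = 0.064), and H3K27me3 gave 0.20 (SE 0.05, adjusted p = 0.064). At Igf2, which encodes a fetal growth factor, the merged region test and the region itself differed: the merged region of 142611601 to 142668800 was called higher for H3K27me3 (0.37, SE 0.06, adjusted p = 0.0028), but at chr7:142665601-142668600 the calls held 93.1, 99.2 and 92.2 reads per kb in WT and 82.5, 88.4 and 80.6 in KO, the opposite order. The list was chosen with earlier results of these data known.

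**Figure D5:**
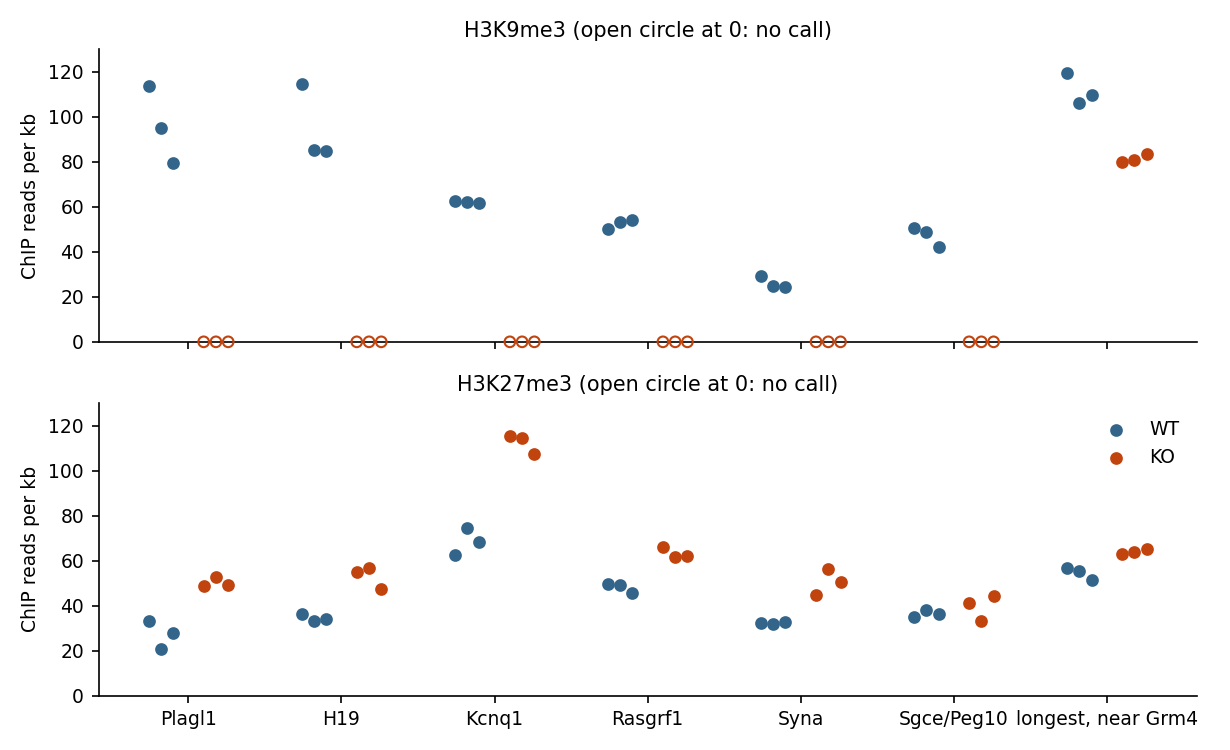
Points give H3K9me3 (top) and H3K27me3 (bottom) ChIP reads per kb of the calls (y axis) in each WT (blue) and KO (red) library for 7 regions (x axis), and an open circle at 0 stands for a library with no call, not for a measured 0. H3K9me3 has no KO call at the first 6 regions, and H3K27me3 lies higher in all KO than in all WT libraries at all of them but Sgce/Peg10.

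The longest region, chr17:27307201-27351000, was 43800 bp long and lay 71387 bp from Grm4, a glutamate receptor gene. H3K9me3 was at 120, 106 and 110 reads per kb in WT and 79.9, 80.6 and 83.5 in KO, and H3K27me3 at 56.8, 55.5 and 51.4 in WT and 63.0, 63.8 and 65.2 in KO. Neither mark overlapped between the groups. The merged regions gave a log2 change of -0.25 for H3K9me3 (SE 0.06, adjusted p = 0.088) and 0.26 for H3K27me3 (SE 0.05, adjusted p = 0.017), and the second was lost without WT replicate 3 or any KO replicate (adjusted p up to 0.09). H3K27ac had no call there in WT and covered 99.5, 99.5 and 95.4% in KO, and an H3K4me3 call was present in 0 of 3 WT and 3 of 3 KO libraries. Its neighbour chr17:27381601-27393000 lay in a merged region whose H3K9me3 fell by 0.32 (SE 0.05, adjusted p = 0.018), a call lost without any single WT replicate or KO replicate 1. Input was raised here, at 42.5 reads per kb in WT replicate 1 against a median of 22.5 over all regions. Other long regions also had raised input: near Gm4791 (23200 bp) H3K9me3 density was 41.1, 35.6 and 39.0 in WT with input at 40.4 in WT replicate 1, and in Raet1e (16800 bp) it was 53.7, 50.6 and 43.0 with input at 50.6. There ChIP and input densities were close.

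The regions with the highest densities of both marks in WT lay at Sncb, which encodes beta-synuclein, Cdkn2a, which encodes cell-cycle inhibitors, Grm4, Ecel1, Igf2 and Gm10471. At the Sncb promoter H3K27me3 was 80.0, 90.8 and 80.9 reads per kb in WT and 99.3, 104 and 92.4 in KO, without overlap, but its merged region did not pass the test (log2 change 0.15, SE 0.06, adjusted p = 0.27), and H3K9me3 was 139, 141 and 152 in WT and 172 and 97.4 in KO, with no call in KO replicate 3. At Cdkn2a (chr4:89284601-89285800) H3K9me3 was 162, 185 and 134 reads per kb in WT and 155, 105 and 126 in KO, which overlap, but divided by the library scale they were 145, 195 and 141 against 133, 117 and 134, which do not (log2 change of the merged region -0.31, SE 0.17, adjusted p = 0.575), and H3K27me3 was 75, 75.8 and 80.5 in WT and 57.2, 60.9 and 60.1 in KO, without overlap (log2 change -0.50, SE 0.07, adjusted p = 0.0011). The Grm4 promoter region chr17:27523801-27524800 had H3K27me3 at 107, 125 and 121 in WT and 114, 123 and 110 in KO, with overlap. Near Ecel1 the H3K27me3 values were 89.8, 95.2 and 89.4 against 93.6, 98.9 and 85.6.

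Beyond the imprinted loci, the larger of the 2 called H3K9me3 rises was in Snx18, a sorting nexin gene, from 36.1, 30.0 and 26.8 reads per kb in WT to 68.2, 54.3 and 57.4 in KO (log2 change 0.83, SE 0.09, adjusted p = 0.0012), and H3K4me3 was called there in 3 of 3 KO libraries. H3K9me3 fell by 0.69 (SE 0.11, adjusted p = 0.015) in Camta1, by 0.72 (SE 0.11, adjusted p = 0.011) near Rln3, which lies in the chromosome 8 segment, and by 0.74 (SE 0.15, adjusted p = 0.043) in Trim80. The Camta1 call was lost without WT replicate 2, WT replicate 3 or KO replicate 3, the Rln3 call without WT replicate 2 or 3, and the Trim80 call under 5 of 6 leave-outs. H3K27me3 fell by 0.46 (SE 0.07, adjusted p = 0.0020) near Alox5ap, where it went from 45.3, 46.7 and 45.6 to 32.9, 29.5 and 31.7, by 0.49 (SE 0.09, adjusted p = 0.0078) in Ap3b1 and by 0.46 (SE 0.10, adjusted p = 0.016) in the growth factor receptor gene Fgfr2, a call lost under 3 of 6 leave-outs. Near Alox5ap an H3K27ac call over all bases in 3 of 3 WT libraries was absent from all KO libraries, and H3K9me3 was 56.3, 69.5 and 45.3 in WT and 33.8, 37.3 and 34.6 in KO (log2 change -0.66, SE 0.20, adjusted p = 0.26). The groups did not overlap for either mark there, but H3K9me3 did not pass the test, and input under the H3K27me3 calls went from 24.6, 24.5 and 24.6 to 19.3, 18.6 and 19.3, whose part was not tested. H3K27me3 rose by 0.63 (SE 0.05, adjusted p = 2.15e-05) in Gm20388, in the chromosome 8 segment, where input went from 17.0, 16.8 and 16.8 to 28.0, 27.5 and 28.0.

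Regions at promoters of the gene lists are given next. The one at the promoters of Hoxd11 and Hoxd12, homeobox genes of the posterior axis, had H3K9me3 at 84.5, 73.6 and 88.9 reads per kb in WT and 108, 72.5 and 101 in KO and H3K27me3 at 123, 143 and 147 in WT and 124, 127 and 122 in KO. At the Hoxc8 promoter H3K27me3 was 125, 140 and 134 in WT and 131, 132 and 106 in KO. At both Hox loci the groups overlapped for both marks and no test passed (adjusted p between 0.41 and 0.86). In the Pcdha cluster, at chr18:37004801-37010200, H3K27me3 density was 59.0, 57 and 58.4 in WT and 65.0, 64.3 and 60.1 in KO (adjusted p = 0.42). At the promoter of Brdt, a testis bromodomain gene silenced in somatic cells, H3K9me3 was 65.2, 49.2 and 47.9 in WT and 63.8, 45.7 and 39.8 in KO, with overlap. The region at the Zfp623 promoter had calls of both marks in 2 of 3 WT libraries and 0 of 3 KO libraries.

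As a check of the cell type, H3K4me3 calls in the promoter window were present in all 6 libraries for the stem cell genes Pou5f1, Sox2, Klf4, Tfcp2l1 and Zfp42, for Nanog in 4, Dppa5a in 1 and Esrrb in 0. They were absent in all 6 for the endoderm genes Gata4, Gata6 and Sox17 (Pdgfra in 1) and the fibroblast genes Col1a1, Col1a2 and S100a4, while the fibroblast gene Thy1 (6) and the neural genes Sox1 (6) and Pax6 (5) carried calls. Nfkbia itself had an H3K4me3 call in 3 WT and 2 KO libraries, and a promoter peak does not check the genotype.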

How the data were processed

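ChIP-seq of 5 histone modifications was available for 30 ChIP and 8 input libraries. Per the study's methods, reads were trimmed with Trim Galore 0.6.6, aligned to GRCm38 with Bowtie2 2.4.4, filtered for multi-mapped and low-quality reads and freed of blacklisted regions. The methods name the aligner for H3K4me3, H3K27me3 and H3K4me1, and for H3K9me3 and H3K27ac it is known from the submitters' processing notes only, and the loss of multi-mapped reads limits what is seen in repeats. Drosophila spike-in reads of H3K27me3 were discarded by the authors, so a genome-wide change of level was not measured. The deposited epic2 lists of H3K9me3, H3K27me3, H3K27ac and H3K4me1 hold, per call, the ChIP read count and the input read count, a p-value and FDR from the authors, and a deposited score. H3K4me3 was deposited as MACS2 2.2.7.1 peaks with the authors' −log10 q-value and no counts.

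Calls were placed on 200 bp bins. Merged regions called in all 6 libraries were fitted with edgeR 4.0.16 (quasi-likelihood, TMM, call length as offset, Benjamini-Hochberg adjustment over all regions of a mark, adjusted p under 0.05), and DESeq2 1.42.0 was an alternative. Coverage is the share of region bases under a call. It and the input segments (1000000 bp windows of input reads under calls) were computed in Python 3.11.15. Exact permutation tests used all 20 assignments and cannot go below p = 0.1. Read counts are not molecules counted once. The Wilson interval treats pairs of merged regions as independent and does not cover the spread between clones. The p-values measure the spread between 3 libraries per genotype. The study's methods give 3 clones per genotype, but the labels do not tie a library to a clone. Names and genes follow GENCODE, and sequences the RefSeq GRCm38.p6 genome.

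Named regions were the 8 longest, the 6 with the highest lower-of-both density, the 4 largest called changes without overlap per mark and direction, pairs called in opposite directions, 2 per gene list at promoters, and regions singled out after their values were seen, which the text says. Members and lists were chosen with earlier results of these data known. Chromosomes X and Y were not used here.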

Additional observations from a re-analysis of the deposited data

Results flagged for a closer look

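An H3K4me3 call appeared in 3 of 3 KO libraries in 7 regions, which by the way regions were chosen had no H3K4me3 call in a WT library. They lay at Camta1, Gm10471, Pax4, Trim42, Plagl1, Snx18 and in the longest region near Grm4. Since the absence from WT was set by the choice of regions, a region with H3K4me3 in WT and none in KO could not appear. In all, 36 of the 1891 regions had an H3K4me3 call in at least 1 KO library, 13 of them in 2. H3K27ac had no WT call and calls in all KO libraries in the longest region, and covered all bases in every library at Camta1 and Snx18. No group of 3 libraries was examined for outlying samples.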

How the results depend on the processing

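The number of regions with both marks followed the rule: 653 with calls in 3 of 3 WT libraries, 775 at a minimum of 2000 bp, 3008 at 200 bp, and 938 to 1103 when both of 2 WT libraries were required. Those with both marks in KO were 595 at 0.8 of bases, 462 with a 3 of 3 KO consensus and 552 to 674 when both of 2 KO libraries were required. Called H3K9me3 regions ranged from 2 to 9 when a replicate was left out and were 17 by DESeq2, and over all merged regions edgeR called 119, DESeq2 273 and regions of like length 451. Called H3K27me3 regions ranged from 38 to 96 when a replicate was left out, were 131 of 290 in regions of like length (711 of 2025 over all), and 41 outside the input segments. In 14 pairs of like length, 42.9% had opposite signs. The KO difference of H3K9me3 coverage was -16.7 to -16.3 percentage points against a left-out WT library (-16.4 for replicate 2) and -7.43 with equal numbers of calls. That of H3K27me3 was 7.87, -2.14 and -0.643 against left-out WT replicates 1, 2 and 3. That of H3K4me1 turned to -0.0427 with each region weighted alike and -0.976 outside the input segments. By correlation, same-numbered WT and KO libraries did not deviate together (from -0.0072 to 0.027). Over all H3K9me3 calls, however, replicate 1 was the densest in both genotypes, at 59.2 reads per kb in WT and 62.1 in KO. Replicates 2 and 3 were at 50.8 and 51.0 in WT and at 49.6 and 50.9 in KO. A factor shared by same-numbered libraries was not tested further. The replicate block gave 7 called H3K9me3 and 77 H3K27me3 regions. Of 314 alternatives for 25 named changes, 280 stayed past the threshold, 34 lost it and 0 changed sign. The 25 repeat a fit where named regions share a merged region, as at H19, Kcnq1, Rasgrf1 and Grm4. Settings in which a region was not tested are not counted, such as calls with FDR under 0.01 at Plagl1. The causes were not tested. Loss of a call is not loss of the mark at this depth, and unreplicated input limits the values at segments with unequal input.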

Other observations

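H3K27ac was called in 0 WT and 3 KO libraries in 36 regions and in 3 WT and 0 KO libraries in 22. Both H3K9me3 and H3K27me3 were called in all WT and no KO libraries in 11 regions. Input reads under H3K9me3 calls were more than 1.5 times the median of all calls in 113 regions (5.98%) in WT and in 305 regions (16.1%) in KO. In the chromosome 8 segment the median input under H3K27me3 calls was 21.2 reads per kb in WT and 27.5 in KO, and outside the segments 17.2 and 19.4.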
